A study of Mus musculus with 6 samples.

Results

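The genes described here are 10 interferon gamma inducible GTPases of the mouse, 5 guanylate binding proteins (Gbp2, Gbp3, Gbp4, Gbp5 and Gbp7) and 5 immunity-related GTPases (Igtp, Irgm1, Irgm2, Iigp1 and Tgtp1). They were taken by name through their Entrez identifiers, and all 10 were found among the 16058 identifiers of the series. RNA-seq libraries had been made from macrophage fractions of the spleen, sorted by the surface antigens Ly6c and F4/80 into Ly6cloF4/80hi, Ly6cloF4/80lo and Ly6chiF4/80lo cells. The T-ALL libraries came from C57BL/6 mice of 6 to 8 weeks, 15 days after each mouse had received 1000000 GFP+ T cell acute lymphoblastic leukemia cells with no irradiation. The normal libraries came from spleens labelled as control and day 0, from mice of the same strain and age. Each subset had 1 library per state, 6 in all, and nothing in the labels says whether the 3 subsets of a state came from separate mice. The p-values below therefore do not measure the spread between mice. They rest on how evenly a state difference held over the 3 subsets, or a subset difference over both states. The spread was moderated over all genes.

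Interferon gamma binds a receptor of 2 chains, Ifngr1 and Ifngr2, and its signal reaches target promoters at the gamma-activated sequence (GAS). The target gene product Irf1 then acts through the interferon-stimulated response element (ISRE). Among the most strongly induced targets in macrophages are the guanylate binding proteins and the immunity-related GTPases, which assemble on the vacuoles of intracellular bacteria and of protozoa such as Toxoplasma. Within the second family Igtp (also called Irgm3), Irgm1 and Irgm2 are regulators that sit on host membranes, whereas Iigp1 and Tgtp1 are effectors that load onto the pathogen vacuole.

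The promoters are shown first, because both response elements can be read in them. RefSeq windows of the 250 bases before the annotated start (GRCm38.p6) were available for 8 of the 10 members, with 2 windows for Gbp3. The windows were searched on both strands for the GAS, TTCNNNGAA, and for the ISRE core, in which GAAA is followed after 2 bases by a second GAAA (on the other strand, TTTC and TTTC). An ISRE core was found in all 8 genes, and a GAS in 5 of them (Gbp5, Gbp7, Igtp, Irgm2 and Tgtp1). The second Gbp3 window (chr3:142560106-142560355) held neither element. For Gbp3 and Irgm2 the bases after the start were not found in the longest annotated transcript. Among all 32851 promoter windows of that length 2.98% held the ISRE core, 7.02% the GAS and 0.332% both. In Igtp, Irgm2 and Tgtp1 the GAS was followed 2 bases later by an ISRE core. The Igtp and Irgm2 windows were also alike over long stretches around it, so they are not independent examples of this arrangement. The windows of these 3 genes are printed with those of Gbp5, which held the elements far apart, and of Gbp2 and Irgm1, which held an ISRE core and no GAS in the window. A match describes the letters and not the binding of a factor. They lie at chr11:58199306-58199555 (plus strand), chr11:58214727-58214976 (plus strand), chr11:48992247-48992496 (minus strand), chr3:142496684-142496933 (plus strand), chr3:142620413-142620662 (plus strand) and chr11:48871421-48871670 (minus strand), and run 5′ to 3′ towards the start with the matched elements in capitals.
Igtp: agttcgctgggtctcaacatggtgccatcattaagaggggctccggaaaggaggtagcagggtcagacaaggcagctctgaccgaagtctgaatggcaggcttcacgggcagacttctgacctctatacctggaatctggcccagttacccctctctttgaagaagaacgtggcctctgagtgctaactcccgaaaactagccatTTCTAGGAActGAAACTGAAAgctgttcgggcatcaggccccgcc
Irgm2: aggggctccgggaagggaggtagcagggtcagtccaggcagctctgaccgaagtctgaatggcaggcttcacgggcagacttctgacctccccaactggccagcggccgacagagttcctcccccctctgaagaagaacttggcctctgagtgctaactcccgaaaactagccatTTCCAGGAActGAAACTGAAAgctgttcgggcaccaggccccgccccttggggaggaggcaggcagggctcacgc
Tgtp1: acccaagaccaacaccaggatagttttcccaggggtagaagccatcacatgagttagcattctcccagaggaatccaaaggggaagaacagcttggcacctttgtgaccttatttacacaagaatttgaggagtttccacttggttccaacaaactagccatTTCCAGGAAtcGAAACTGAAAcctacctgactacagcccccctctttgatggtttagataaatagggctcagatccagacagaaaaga
Gbp5: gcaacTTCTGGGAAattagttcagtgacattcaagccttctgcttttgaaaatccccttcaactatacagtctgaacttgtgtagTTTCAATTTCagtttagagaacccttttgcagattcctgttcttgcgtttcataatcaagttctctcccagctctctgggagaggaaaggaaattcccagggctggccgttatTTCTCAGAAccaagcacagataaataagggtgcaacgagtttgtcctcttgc
Gbp2: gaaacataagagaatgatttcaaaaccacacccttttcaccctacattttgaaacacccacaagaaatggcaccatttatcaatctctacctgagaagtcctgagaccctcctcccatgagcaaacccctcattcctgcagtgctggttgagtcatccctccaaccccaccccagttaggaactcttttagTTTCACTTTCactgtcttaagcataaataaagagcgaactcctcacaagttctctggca
Irgm1: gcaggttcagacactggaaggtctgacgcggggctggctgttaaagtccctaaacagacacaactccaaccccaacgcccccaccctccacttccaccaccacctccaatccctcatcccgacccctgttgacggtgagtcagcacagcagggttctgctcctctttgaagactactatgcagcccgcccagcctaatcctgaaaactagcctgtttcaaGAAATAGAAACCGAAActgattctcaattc

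**Figure D1:**
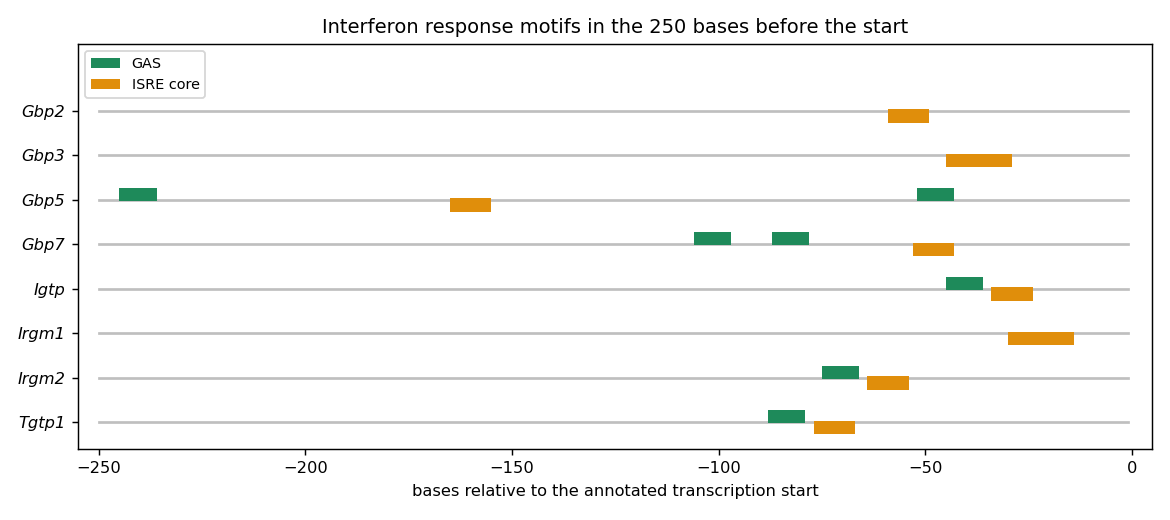
Position of each GAS (green) and ISRE core (orange) in the 250 bases before the annotated start of the 8 members with a window; the x axis is in bases relative to the start. The elements adjoin in Igtp (-45 to -37 and -34 to -25), Irgm2 (-75 to -67 and -64 to -55) and Tgtp1 (-88 to -80 and -77 to -68).

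The sorted cells carried the transcripts of their gates. Ly6c2 had 19.8, 21.4 and 1405 FPKM (fragments per kilobase of transcript, scaled to 1000000 fragments) in T-ALL Ly6cloF4/80hi, Ly6cloF4/80lo and Ly6chiF4/80lo cells, against 11.8, 19.9 and 481.9 FPKM in the normal subsets in the same order. Adgre1, which encodes F4/80, had 234.5, 74.7 and 47.3 FPKM in the T-ALL subsets and 529.2, 86.7 and 86.6 FPKM in the normal subsets. Depth, estimated from the spacing of low values, was between 6700000 and 8695000 fragments per library. The fractions also held RNA of other cells. The B cell gene Cd79a had 450.2 to 780.2 FPKM in T-ALL libraries and 544.6 to 1167 FPKM in normal libraries. The summed level of 10 neutrophil genes was 43603 FPKM in T-ALL and 13042 FPKM in normal Ly6chiF4/80lo cells, and at most 392.1 FPKM in the other 4 libraries. In bulk fractions fewer cells of a type and less RNA per cell cannot be told apart.

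All 10 members had a value above 0 in every library. The 4 with the highest peak values were Irgm1 (60.6 to 82.0 FPKM), Igtp (29.8 to 72.0 FPKM), Irgm2 (18.4 to 46.0 FPKM) and Gbp2 (21.8 to 45.7 FPKM). The range of Irgm1 overlapped that of Igtp alone, and the ranges of Igtp, Irgm2 and Gbp2 overlapped each other. Gbp5 was the lowest in its peak value, between 3.31 and 7.91 FPKM. Iigp1 had the widest range of the 10, 31.8-fold between its lowest and highest library, and Irgm1 the narrowest, 1.35-fold. Summed over the 10 genes, the level was 306.4, 289.1 and 262.4 FPKM in T-ALL Ly6cloF4/80hi, Ly6cloF4/80lo and Ly6chiF4/80lo cells, against 278.1, 205.2 and 228.2 FPKM in the normal subsets.

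**Figure D2:**
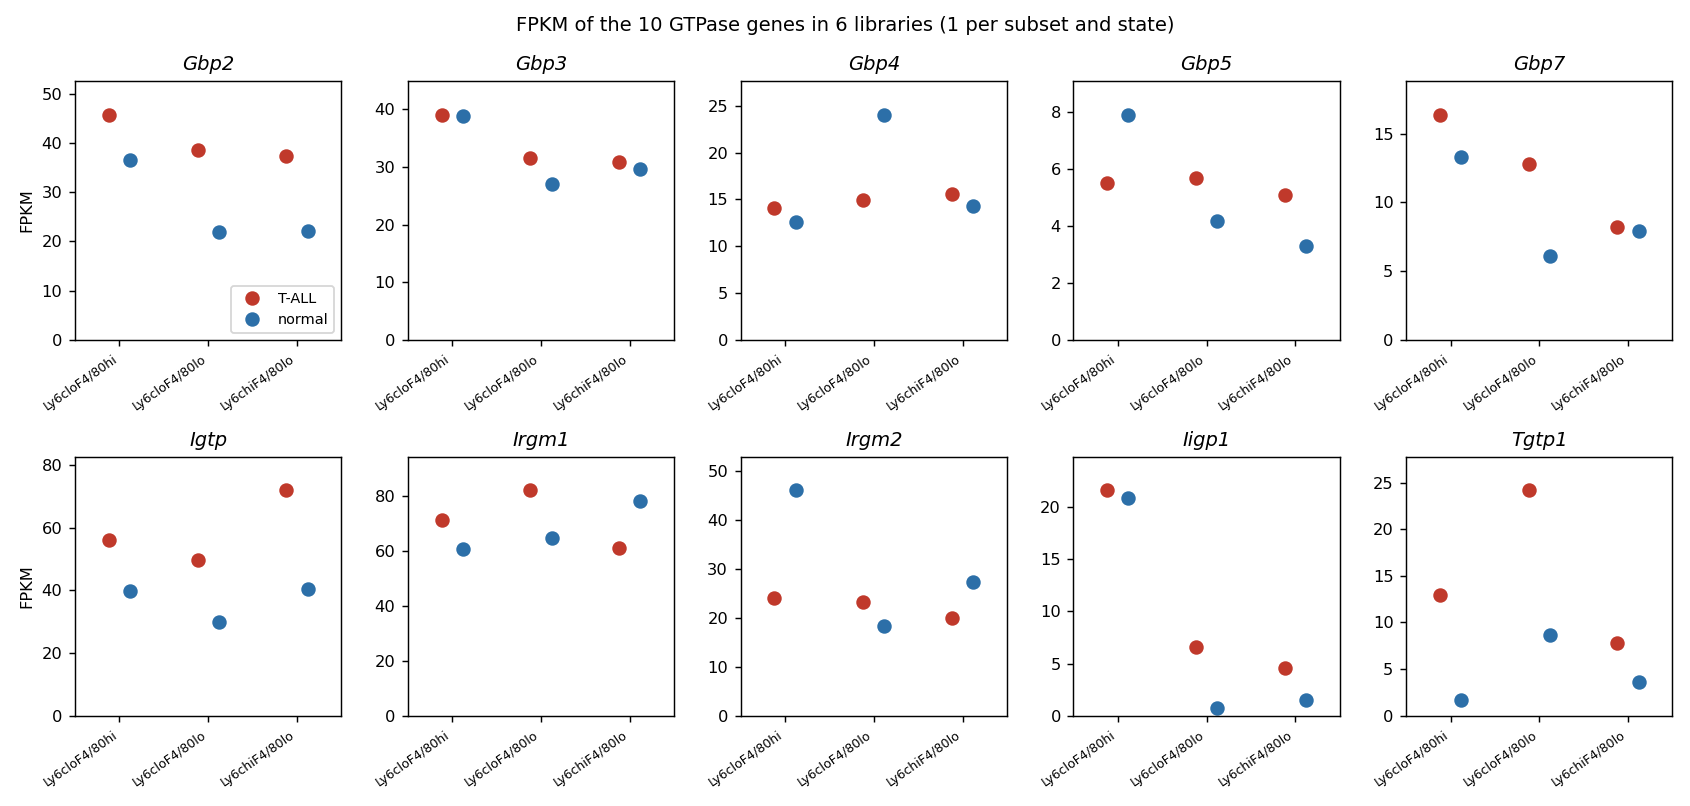
FPKM of each member (y axis, from 0) in the 3 subsets (x axis), 1 point per library, T-ALL in red left of normal in blue. For Igtp and Gbp2 the 3 T-ALL points lie above the 3 normal points, and Iigp1 is high in both Ly6cloF4/80hi libraries (21.6 and 20.9 FPKM).

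In T-ALL spleens 2 of the 10 members passed as higher across the subsets, Igtp and Tgtp1, and none as lower. Igtp did not pass with any 1 library left out, and Tgtp1 did not when summed with its near-identical paralog Tgtp2. Of all 11616 genes tested 12.1% passed, 8.2% higher and 3.94% lower. The test was limma on log2(FPKM + 1) with subset and state in the model, Benjamini-Hochberg adjustment over all tested genes and an adjusted p under 0.05. Without adjustment 4 members had p under 0.05, all of them higher in T-ALL (Gbp2, Igtp, Iigp1 and Tgtp1), as had 34.8% of all tested genes, 19.4% higher. The median fitted log2 change of the members was 0.28, against -0.03 for all genes tested. In all 3 subsets 6 of the 10 members were higher in T-ALL than in normal cells, as were 27.9% of all tested genes. Some of these differences lay within the counting error. They were those of Gbp3 in Ly6cloF4/80hi and Ly6chiF4/80lo cells (log2 ratios 0.005 and 0.05), Iigp1 in Ly6cloF4/80hi (0.05) and Gbp7 in Ly6chiF4/80lo cells (0.04). None of the 10 was lower in all 3 subsets, as 30% of all tested genes were. For 2 members, Igtp and Gbp2, all T-ALL libraries lay above all normal libraries, as they did for 13.8% of all tested genes. The states did not overlap, in either direction, for 24.6% of all tested genes.

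Among the regulators, Igtp had 56.0, 49.8 and 72.0 FPKM in T-ALL Ly6cloF4/80hi, Ly6cloF4/80lo and Ly6chiF4/80lo cells, against 39.7, 29.8 and 40.5 FPKM in the normal subsets. The lowest T-ALL library lay above the highest normal library, and the means were 59.2 ± 11.5 FPKM in T-ALL and 36.7 ± 5.97 FPKM in normal cells (SD, n = 3 subsets each). Igtp rose 1.59-fold (log2 0.67, SE 0.14, limma adjusted p = 0.0344). With any 1 library left out its adjusted p lay between 0.0788 and 0.115, at a log2 change of 0.60 to 0.77, and without the filter on low values it was 0.0703. Irgm1, needed for resistance to mycobacteria in mice, had 71.1, 82.0 and 61.1 FPKM in the T-ALL subsets, against 60.6, 64.6 and 78.0 FPKM in the normal subsets. The states overlapped, with T-ALL above normal in both Ly6clo subsets and below it in Ly6chiF4/80lo cells (fitted log2 0.07, SE 0.18, limma adjusted p = 0.793). Irgm2 had 24.1, 23.2 and 20.0 FPKM in the T-ALL subsets, against 46.0, 18.4 and 27.4 FPKM in the normal subsets. Its normal Ly6cloF4/80hi library stood above the other 5, and the fitted log2 change of -0.34 (SE 0.24) did not pass (limma adjusted p = 0.345). That change was -0.059 without either Ly6cloF4/80hi library and -0.67 without either Ly6cloF4/80lo library, and passed in neither case.

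Of the effectors, Iigp1 had its highest values in the Ly6cloF4/80hi libraries. It had 21.6, 6.60 and 4.58 FPKM in T-ALL Ly6cloF4/80hi, Ly6cloF4/80lo and Ly6chiF4/80lo cells, against 20.9, 0.68 and 1.45 FPKM in the normal subsets. Both Ly6cloF4/80hi values were close together, while both F4/80lo subsets had the higher value in T-ALL. The log2 ratio of FPKM + 1 was 0.05 in Ly6cloF4/80hi, 2.18 in Ly6cloF4/80lo and 1.19 in Ly6chiF4/80lo cells, with 1 library per state and no test within a subset. About 17 fragments stood behind the lowest value, a counting error of 24.3%. Over the 3 subsets the state change of 1.14 (log2, SE 0.38) did not pass (limma adjusted p = 0.0944). It was 0.62 without either Ly6cloF4/80lo library and 1.68 without either Ly6cloF4/80hi library, and no library left out made it pass (limma adjusted p between 0.0524 and 0.275).

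Tgtp1 had 12.95, 24.2 and 7.78 FPKM in the T-ALL subsets, against 1.69, 8.70 and 3.57 FPKM in the normal subsets. T-ALL was above normal in every subset, and the states overlapped because the normal Ly6cloF4/80lo value exceeded that of T-ALL Ly6chiF4/80lo cells. Tgtp1 rose 2.96-fold (log2 1.56, SE 0.28, limma adjusted p = 0.0248). This value is uncertain, because 91.4% of the 50-base words of its transcript also occur in other genes, 89.4% in the paralog Tgtp2. Tgtp2 had 71.2, 75.5 and 31.2 FPKM in the T-ALL subsets, against 58.4, 38.7 and 44.2 FPKM in the normal subsets. Tgtp1 made up 15.4%, 24.3% and 19.9% of the pair's FPKM in the T-ALL subsets and 2.81%, 18.3% and 7.48% in the normal subsets. Summed, the pair had 84.2, 99.6 and 39.0 FPKM in the T-ALL subsets, against 60.1, 47.4 and 47.7 FPKM in the normal subsets. The sum was lower in T-ALL than in normal Ly6chiF4/80lo cells and did not pass (log2 0.42, limma adjusted p = 0.287). The adjusted p of Tgtp1 alone was 0.0631 without the normal and 0.0607 without the T-ALL Ly6cloF4/80lo library, and 0.0636 without the filter on low values. The other members shared between 0% (Irgm1) and 12.8% (Gbp7 and Gbp4) of such words with other genes, and Igtp shared 12.3% with Irgm2.

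**Figure D3:**
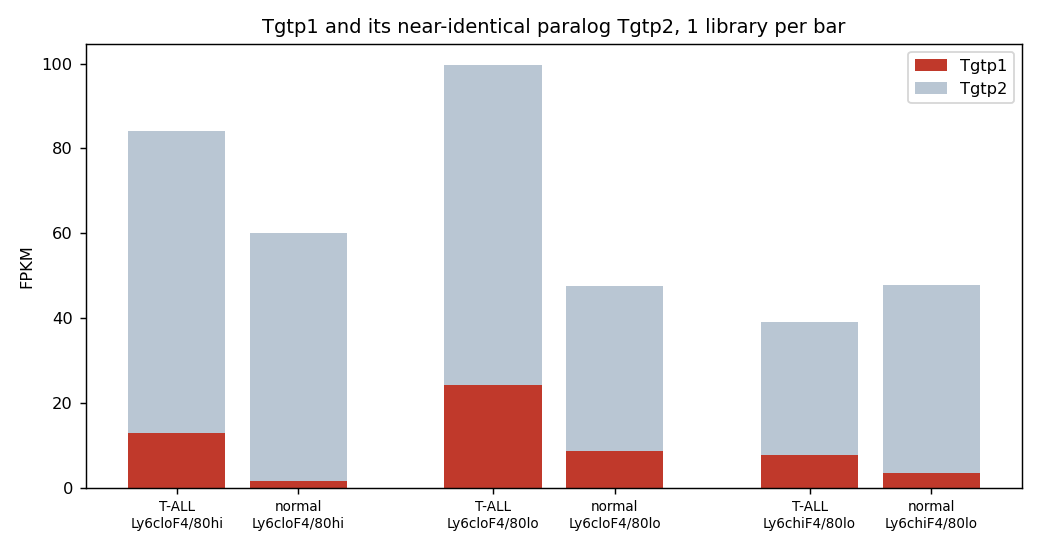
FPKM of Tgtp1 (red) with Tgtp2 (grey) stacked on it, 1 library per bar, T-ALL left of normal in each subset; the y axis starts at 0. The pair together had 84.2, 99.6 and 39.0 FPKM in T-ALL and 60.1, 47.4 and 47.7 FPKM in normal cells, and Tgtp1 was the smaller part of every bar.

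Among the guanylate binding proteins none passed in T-ALL against normal by limma, and Gbp2 was the 1 with an unadjusted p under 0.05. Gbp2, which is recruited to the Toxoplasma vacuole in mouse cells, had 45.7, 38.5 and 37.3 FPKM in the T-ALL subsets, against 36.4, 21.8 and 22.0 FPKM in the normal subsets. All 3 T-ALL libraries were above all 3 normal libraries, with means of 40.5 ± 4.53 FPKM in T-ALL and 26.8 ± 8.38 FPKM in normal cells (SD, n = 3 subsets each). The fitted change was 1.53-fold (log2 0.62, SE 0.15) and missed the threshold (limma adjusted p = 0.0501). It passed with a pseudocount of 0.1 (limma adjusted p = 0.0461) and among genes with a mean of at least 5 FPKM (limma adjusted p = 0.0436). It did not pass under the other 11 alternatives, each library left out among them (limma adjusted p between 0.0577 and 0.252).

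Gbp7, which helps to assemble the phagocyte oxidase in mouse macrophages, had 16.4, 12.8 and 8.19 FPKM in the T-ALL subsets, against 13.3, 6.07 and 7.92 FPKM in the normal subsets. The values were higher in T-ALL in each subset, most in Ly6cloF4/80lo cells (log2 ratio 0.96), and the states overlapped (fitted log2 0.43, SE 0.21, limma adjusted p = 0.194). Its fitted change was 0.16 without either Ly6cloF4/80lo library and 0.62 without either Ly6chiF4/80lo library, and passed in neither case. Gbp3 had 39.1, 31.5 and 30.9 FPKM in the T-ALL subsets, against 38.9, 27.0 and 29.7 FPKM in the normal subsets. Its 2 states were close in every subset, and the fitted log2 change was 0.09 with a 95% interval of -0.23 to 0.41 (limma adjusted p = 0.645). Gbp5, known to promote assembly of the Nlrp3 inflammasome, had 5.51, 5.69 and 5.09 FPKM in the T-ALL subsets, against 7.91, 4.19 and 3.31 FPKM in the normal subsets. The T-ALL values lay within the range of the normal values (fitted log2 0.14, SE 0.23, limma adjusted p = 0.691). Gbp4 had 14.0, 14.9 and 15.5 FPKM in the T-ALL subsets, against 12.6, 24.0 and 14.3 FPKM in the normal subsets. Only the normal Ly6cloF4/80lo library stood away from the other 5 (fitted log2 -0.13, SE 0.20, limma adjusted p = 0.665).

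**Figure D4:**
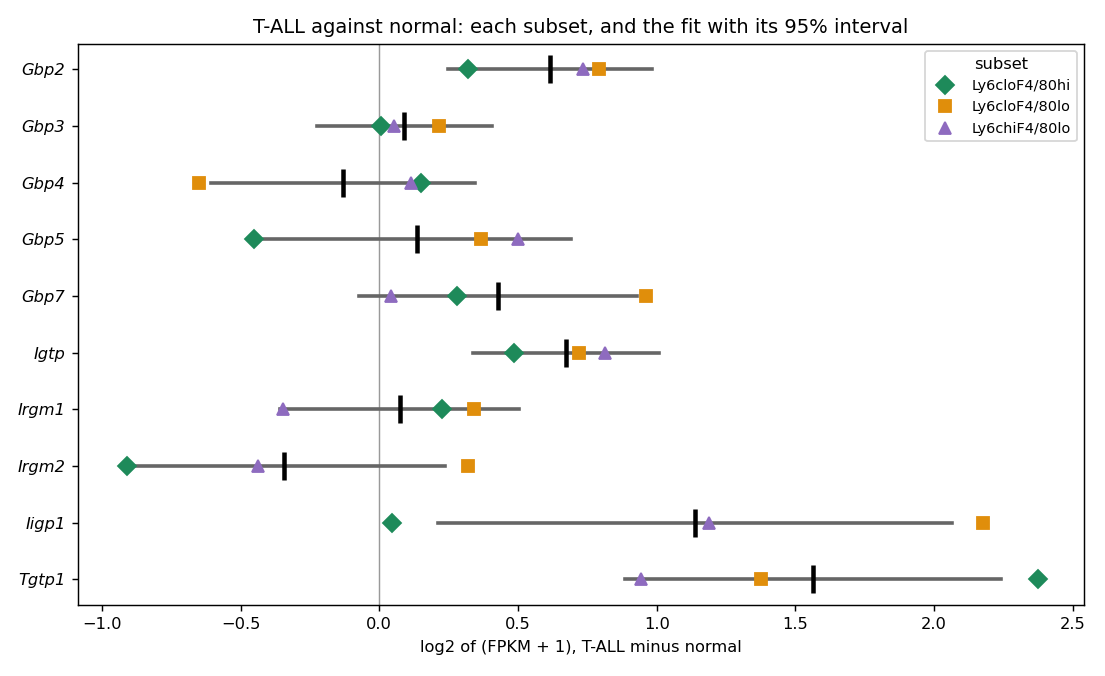
Log2 of (FPKM + 1) in T-ALL minus normal (x axis) for each member (y axis), with a symbol per subset, the fitted change as a black bar and its 95% interval as a grey line. The fitted changes run from -0.34 (Irgm2) to 1.56 (Tgtp1), and the symbols of Gbp5, Irgm1 and Irgm2 lie on both sides of 0, as do those of Gbp4.

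Other transcripts moved with the state in these fractions. Of erythroid genes 6 of 10 rose in T-ALL, with summed levels of 739.6 to 32448 FPKM in T-ALL and 561.0 to 4148 FPKM in normal libraries. Of granule and other genes of myeloid progenitors 6 of 7 rose (sums of 86.7 to 1747 FPKM in T-ALL and 27.5 to 243.0 FPKM in normal libraries), and of plasma cell genes 5 of 7 rose (1691 to 14659 FPKM in T-ALL and 476.0 to 5860 FPKM in normal libraries). Of red pulp macrophage genes 11 of 13 fell (354.0 to 5179 FPKM in T-ALL and 800.1 to 14749 FPKM in normal libraries), and of conventional dendritic cell genes 4 of 9 fell (110.7 to 341.3 FPKM in T-ALL and 278.4 to 649.0 FPKM in normal libraries). Of megakaryocyte and platelet genes 2 of 7 rose (37.9 to 60.0 FPKM in T-ALL and 17.9 to 24.98 FPKM in normal libraries). Of 11 T cell genes tested by limma none rose and 1 fell, with 1 higher and 2 lower at an unadjusted p under 0.05 (sums over the 12 genes listed of 99.7 to 124.2 FPKM in T-ALL and 79.1 to 168.5 FPKM in normal libraries). None of the genes of these 7 lists was at 0 in any library. In each of the other 7 cell type lists at most 1 gene passed in either direction by limma. The part of these cells in the values of Igtp and Tgtp1 was not tested.

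Between subsets, Iigp1 was the only member that passed with all 6 libraries. It was higher in Ly6cloF4/80hi cells (21.6 and 20.9 FPKM in T-ALL and normal) than in Ly6chiF4/80lo cells (4.58 and 1.45 FPKM), by 6.02-fold on the log2(FPKM + 1) scale (log2 2.59, SE 0.47, limma adjusted p = 0.0205). In that comparison 12.8% of all genes tested passed, 7.1% higher and 5.68% lower. It was also higher in Ly6cloF4/80hi than in Ly6cloF4/80lo cells (6.60 and 0.68 FPKM in T-ALL and normal), by 6.23-fold (log2 2.64, SE 0.47, limma adjusted p = 0.0405), where 3.56% of all genes tested passed, 2.66% higher and 0.904% lower. Against Ly6chiF4/80lo cells the adjusted p was 0.0796 without the normal and 0.0812 without the T-ALL Ly6chiF4/80lo library. The log2 change was 1.77 without the normal Ly6cloF4/80hi library (limma adjusted p = 0.0699) and 3.41 without the T-ALL Ly6cloF4/80hi library (limma adjusted p = 0.00694). Against Ly6cloF4/80lo cells the call was lost under either rescaling of the libraries (limma adjusted p = 0.0523 and 0.0534), without the normal Ly6cloF4/80lo library (log2 1.86, adjusted p = 0.169) and without the normal Ly6cloF4/80hi library (log2 1.82, adjusted p = 0.147). Without the T-ALL Ly6cloF4/80lo or Ly6cloF4/80hi library that log2 change was 3.42 or 3.46 and passed. Tgtp1 passed as lower in Ly6cloF4/80hi than in Ly6cloF4/80lo cells with the T-ALL Ly6cloF4/80hi library left out (log2 -1.96, limma adjusted p = 0.0154), and with all libraries it did not (log2 -1.35, limma adjusted p = 0.0957). All 13 red pulp macrophage genes were higher in Ly6cloF4/80hi than in Ly6chiF4/80lo and than in Ly6cloF4/80lo cells, and 9 of 10 erythroid genes than in Ly6chiF4/80lo cells. Their part in the level of Iigp1 was not tested.

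No member passed between Ly6cloF4/80lo and Ly6chiF4/80lo cells by limma, where 4.73% of all genes tested did, 2.68% higher and 2.05% lower. Tgtp1 came nearest, with 24.2 and 8.70 FPKM in T-ALL and normal Ly6cloF4/80lo cells, against 7.78 and 3.57 FPKM in Ly6chiF4/80lo cells (log2 1.30, SE 0.34, limma adjusted p = 0.0864). It passed with the normal or the T-ALL Ly6cloF4/80hi library left out (limma adjusted p = 0.0266 and 0.0250), and the sum of Tgtp1 and Tgtp2 did not pass (limma adjusted p = 0.234). Without adjustment 2 members had p under 0.05, Tgtp1 and Igtp, as had 26.3% of all tested genes. The change of Igtp was -0.48 (log2, SE 0.17, limma adjusted p = 0.150). Of the 10, 5 were highest in Ly6cloF4/80hi, 3 in Ly6cloF4/80lo and 2 in Ly6chiF4/80lo cells in T-ALL, against 6, 2 and 2 in normal spleen. The share over all genes tested was not computed for this count, so no tilt towards a subset is read from it. The median log2 change of all genes tested was 0.12 in Ly6cloF4/80hi and 0.19 in Ly6cloF4/80lo cells, each against Ly6chiF4/80lo cells, and median-ratio rescaling brought these medians to 0.02 and 0.01.

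The members did not follow one common profile over the 6 libraries. Their 45 pairs had a Pearson r from -0.76 (Gbp3 and Gbp4) to 0.97 (Gbp3 and Iigp1), and 26 of the pairs were above 0. Against the mean of the other 9 members r was 0.94 for Gbp7, 0.92 for Gbp2, 0.89 for Iigp1, 0.76 for Gbp3 and 0.64 for Gbp5. It was 0.37 for Igtp, 0.17 for Irgm2, 0.12 for Tgtp1, -0.08 for Irgm1 and -0.75 for Gbp4. The 3 genes with adjoining GAS and ISRE cores, Igtp, Irgm2 and Tgtp1, had fitted state changes of 0.67, -0.34 and 1.56 (log2). These are descriptions over 6 libraries that share their gates and mice of 2 states. The 10 other genes most like the members' mean profile, among 7598 candidates, were Vamp8, Smn1, Umps, Optn, Ccdc22, Eif2b2, Vps29, Mtx1, Omd and Sord, with r from 0.966 to 0.998. They were picked for their high r over only 6 libraries, so these values are not a test of a link. Vamp8, a SNARE of endosomes, had 226.1, 212.2 and 192.3 FPKM in the T-ALL subsets and 206.9, 165.3 and 170.8 FPKM in the normal subsets.

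In the rest of both families no gene rose by limma, also at an unadjusted p under 0.05, and 4 fell in T-ALL. Of all tested genes 8.2% rose and 3.94% fell. Calls of genes outside the 10 members were not followed under the alternatives or with a library left out. How far they depend on the processing was not tested. Of the other guanylate binding proteins 4 of 6 could be tested and 2 fell. Gbp9 had 20.6, 24.7 and 17.8 FPKM in the T-ALL subsets, against 40.0, 40.6 and 34.0 FPKM in the normal subsets, with no overlap (log2 -0.84, SE 0.13, limma adjusted p = 0.0195). Gbp8 had 48.1, 16.3 and 6.43 FPKM in the T-ALL subsets, against 101.8, 27.1 and 8.43 FPKM in the normal subsets, lower in each (log2 -0.70, SE 0.17, limma adjusted p = 0.04996). Gbp6 did not pass (log2 0.64, limma adjusted p = 0.152). Of the other 11 immunity-related GTPases 2 fell, 9930111J21Rik1 (log2 -0.73, limma adjusted p = 0.0290) and Gm5431 (log2 -0.66, limma adjusted p = 0.0447). F830016B08Rik (log2 -0.75, adjusted p = 0.0540) and Gm4841 (log2 -0.63, adjusted p = 0.0848) did not pass in limma. The median log2 change was -0.38 for the 4 guanylate binding proteins and -0.32 for the 11 immunity-related GTPases. It was 0.28 for the 10 members and -0.03 for all genes tested. Members and lists were chosen with earlier results of these data known, so this contrast is not a test. Of the dynamin-like Mx proteins and the very large GTPases, Mx2 (log2 -0.86, limma adjusted p = 0.0475) and Mx1 (log2 -0.72, limma adjusted p = 0.0384) fell, and Gvin1 did not pass (log2 0.02, adjusted p = 0.937).

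**Figure D5:**
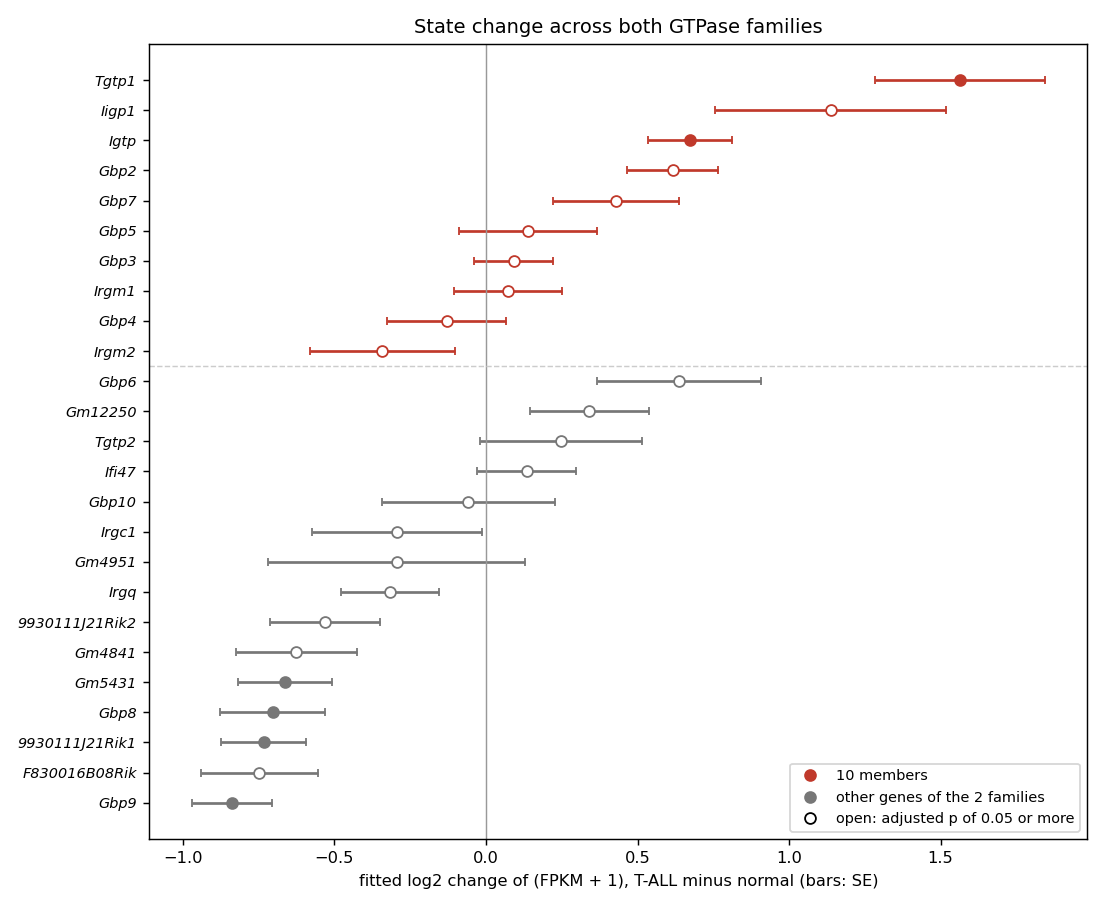
Fitted log2 change of (FPKM + 1) in T-ALL minus normal (x axis, bars are the SE) for the 10 members (red) and the other tested genes of both families (grey); filled points had an adjusted p under 0.05. Igtp and Tgtp1 are the filled points above 0, and Gbp9, Gbp8, 9930111J21Rik1 and Gm5431 are those below 0.

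Upstream of the members, the ligand transcript was low and its receptor was not higher in T-ALL. Ifng, named here as the ligand, had 1.26, 3.12 and 2.52 FPKM in the T-ALL subsets, against 1.44, 2.45 and 5.77 FPKM in the normal subsets (log2 -0.27, limma adjusted p = 0.505). Ifngr1 had 131.5, 210.4 and 209.5 FPKM in the T-ALL subsets, against 295.3, 265.0 and 476.6 FPKM in the normal subsets. The states did not overlap, and the change of -0.89 (log2, SE 0.22) missed the threshold (limma adjusted p = 0.0519). Ifngr2 (log2 -0.51, adjusted p = 0.0807) and Il12b (log2 0.83, adjusted p = 0.0508) did not pass in limma. Of the 10 genes of the ligand, its inducers and its receptor, only Il18, a cytokine that induces Ifng, passed, and it fell (log2 -0.96, SE 0.14, limma adjusted p = 0.0154).

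All 10 transcription factors of the response had a fitted change below 0, with a median of -0.28 (log2), and 1 fell. This was Ciita, the coactivator of class II genes, with 56.9, 84.5 and 25.3 FPKM in the T-ALL subsets, against 73.6, 160.2 and 70.5 FPKM in the normal subsets (log2 -0.91, SE 0.22, limma adjusted p = 0.0482). Batf3 (-0.99), Stat2 (-0.55) and Irf8 (-0.51) did not pass (limma adjusted p = 0.0783, 0.0517 and 0.0906). Irf1 (-0.26), named as a factor that acts through the ISRE, did not pass either (limma adjusted p = 0.296). Of 8 genes listed as inhibitors of the pathway 6 did not pass. Dusp1, a MAP kinase phosphatase, fell (log2 -1.55, SE 0.17, limma adjusted p = 0.00898). Cish, of the SOCS family, rose (log2 1.23, SE 0.23, limma adjusted p = 0.0269). It was outside the naming rule, with 4.71, 2.54 and 2.44 FPKM in the T-ALL subsets and 0.71, 0.84 and 0.71 FPKM in the normal subsets. Whether Dusp1 or Cish acted on this pathway in these cells was not tested. Socs1 (log2 0.39, adjusted p = 0.099997), Socs3 (log2 0.53, adjusted p = 0.253) and Pias1 (log2 -0.39, adjusted p = 0.0906) did not pass in limma. Of 27 other interferon gamma targets tested none rose and 1 fell, with 4 higher and 6 lower at an unadjusted p under 0.05. The 1 that fell was the Fc receptor gene Fcgr1 (log2 -1.10, SE 0.25, limma adjusted p = 0.0410). The median log2 change of the 27 was 0.14, with 15 above 0 and 12 below. Upp1 (1.44), H2-Ab1 (-0.92) and Cd74 (-0.90) did not pass (limma adjusted p = 0.0793, 0.0693 and 0.105).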

How the data were processed

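RNA of 6 sorted spleen fractions was sequenced by Illumina chemistry, per the labels' protocols. The authors deposited FPKM per Entrez gene, made with Bowtie2 2.2.5 and RSEM, per the submitters' processing notes. Which RSEM version, genome build and annotation were used is not given in the sources used here. Genes that a file did not list were set to 0 FPKM, and listed values began at 0.01. Symbols were found for 16017 of 16058 identifiers in a RefSeq table (GRCm38.p6, names only).

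The 11616 genes that reached 1 FPKM in 2 or more libraries were analysed as log2(FPKM + 1), so folds of low genes are understated, with limma 3.58.1 (trended, robust prior; statmod 1.5.0, R 4.3.3). Subset and state were fitted to all 6 libraries, with 2 residual degrees of freedom. Tests were two-sided, with Benjamini-Hochberg adjustment over all tested genes. No test was possible within a subset, which has a single library per state. The fit was tested on simulated data for T-ALL against normal. In each of 10 runs 200 of the 11616 genes were changed. Noise was normal and independent between libraries, with the spreads shuffled over genes. The fit recovered 7.8% of log2 changes of 1 and 60.2% of log2 changes of 2, and 1.74% of its calls were false. A change that did not pass is therefore not shown to be absent. In the data 12.1% of genes passed and libraries of a state may share mice. The 1.74% is thus not the false share of the calls reported here.

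Depth and shared 50-base words used GENCODE M21 transcripts. The depth estimate rests on annotated lengths and is approximate. Counting errors come from it and cover counting only. Motifs, depth and figures used Python 3.11.15 (numpy 2.4.6, pandas 2.3.3, matplotlib 3.10.9).

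The members and the lists were chosen with earlier results of these data known. Named were all members, Ly6c2 and Adgre1, up to 4 genes per family or pathway list with the largest absolute state change and at least 5 FPKM in 1 library, and the 10 genes of at least 10 FPKM most correlated with the members' mean profile. Ifng, Irf1, Cish and Cd79a were added after their values were seen. Alternatives were a pseudocount of 0.1, no filter, a filter on the mean (5 FPKM or more), rescaling by median ratios or quantiles, limma without trend and robust prior, no block, and each library left out. Single genes outside the members were not followed through them. The sum of Tgtp1 and Tgtp2 was added after seeing the data.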

Additional observations from a re-analysis of the deposited data

Results flagged for a closer look

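3 members moved in opposite directions with T-ALL in different subsets, by more than the counting error of the libraries. There is 1 library per subset and state, and the difference between subsets was not tested. For Gbp5 the log2 ratio of T-ALL to normal (FPKM + 1) was -0.45 in Ly6cloF4/80hi, 0.37 in Ly6cloF4/80lo and 0.50 in Ly6chiF4/80lo cells. For Irgm1 it was 0.23 in Ly6cloF4/80hi, 0.34 in Ly6cloF4/80lo and -0.35 in Ly6chiF4/80lo cells. For Irgm2 it was -0.91 in Ly6cloF4/80hi, 0.32 in Ly6cloF4/80lo and -0.44 in Ly6chiF4/80lo cells.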

How the results depend on the processing

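The T-ALL and normal libraries were paired by subset in the model, and the values without the block are those without this pairing. For T-ALL against normal the members that passed numbered 2, and 0 without the filter on low values or without the block for subset, 1 without trend and robust prior, and 0 to 1 with each library left out. Genes passing numbered 370 without the filter, 161 without the block and 283 to 923 with each library left out. For Ly6cloF4/80hi against Ly6chiF4/80lo 1 member passed, and 0 without the filter or the block and 0 to 1 with a library left out, with 867, 197 and 617 to 1277 genes. For Ly6cloF4/80lo against Ly6chiF4/80lo 0 members passed, and 0 to 1 with a library left out, with 156 genes without the filter, 0 without the block and 81 to 718 with a library left out. For Ly6cloF4/80hi against Ly6cloF4/80lo 1 member passed, and 0 with a pseudocount of 0.1, without the filter, under either rescaling or without the block, and 0 to 2 with a library left out, with 173 genes without the filter, 0 without the block and 127 to 668 with a library left out. The calls were lost as follows (limma adjusted p). Igtp had 0.0502 without trend and robust prior and 0.184 without the block, and Tgtp1 had 0.244 without the block. Iigp1 in Ly6cloF4/80hi against Ly6chiF4/80lo had 0.0535 without the filter and 0.165 without the block. In Ly6cloF4/80hi against Ly6cloF4/80lo it had 0.05004 with a pseudocount of 0.1, 0.108 without the filter and 0.290 without the block.

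Values that turned their sign had not passed. Under quantile rescaling Irgm1 in T-ALL against normal was -0.033. For Ly6cloF4/80lo against Ly6chiF4/80lo, Gbp2, Gbp7 and Irgm1 were -0.20, -0.070 and -0.14 under median-ratio rescaling, and Gbp2, Gbp5 and Gbp7 were -0.098, -0.024 and -0.078 under quantile rescaling. Summed with Tgtp2, Tgtp1 was 0.71 for Ly6cloF4/80hi against Ly6chiF4/80lo and 0.047 for Ly6cloF4/80hi against Ly6cloF4/80lo. With each library left out the log2 changes in T-ALL against normal spanned -0.27 to 0.13 for Gbp4, -0.043 to 0.43 for Gbp5 and -0.060 to 0.28 for Irgm1. For Ly6cloF4/80hi against Ly6chiF4/80lo they spanned -0.36 to 0.055 for Gbp4, -0.39 to 0.24 for Irgm1 and -0.66 to 0.56 for Tgtp1. For Ly6cloF4/80lo against Ly6chiF4/80lo they spanned -0.12 to 0.15 for Gbp2, -0.15 to 0.039 for Gbp3, -0.061 to 0.72 for Gbp4, -0.069 to 0.47 for Gbp5, -0.28 to 0.52 for Gbp7, -0.24 to 0.39 for Irgm1, -0.67 to 0.33 for Irgm2 and -0.83 to 0.73 for Iigp1. For Ly6cloF4/80hi against Ly6cloF4/80lo they spanned -0.072 to 0.81 for Gbp5 and -0.35 to 0.054 for Irgm1. The cause was not tested.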

Other observations

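Genes that work with the GTPases were examined as lists. The inflammasome partners held 8 tested genes, of which none rose by limma, also at an unadjusted p under 0.05, and 2 fell in T-ALL, with a median log2 change of -0.54 against -0.03 for all genes tested. Nlrp3, the sensor whose assembly Gbp5 promotes, fell (log2 -1.37, SE 0.17, limma adjusted p = 0.0108), as did Aim2, a sensor of cytosolic DNA (log2 -0.67, SE 0.15, limma adjusted p = 0.0392). Naip5 (log2 -0.67, adjusted p = 0.0796) and Nlrc4 (log2 -0.56, adjusted p = 0.0650) did not pass in limma. Of 12 tested genes of the ubiquitin-like conjugation machinery that places the GTPases on vacuoles, none passed by limma in either direction, and 1 had an unadjusted p under 0.05. Atg16l1 (log2 -0.42, adjusted p = 0.0830), Atg7 (-0.34, adjusted p = 0.178), Atg5 (0.17, adjusted p = 0.388) and Map1lc3a (-0.54, adjusted p = 0.173) were the largest changes by limma.

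Of 20 type I interferon stimulated genes 1 rose and 2 fell in T-ALL, where 8.2% of all tested genes rose and 3.94% fell. At an unadjusted p under 0.05 by limma 2 were higher and 7 lower, and the median log2 change was -0.15. Zbp1, a sensor of nucleic acids, had 46.3, 75.3 and 168.7 FPKM in T-ALL Ly6cloF4/80hi, Ly6cloF4/80lo and Ly6chiF4/80lo cells, against 26.5, 54.6 and 108.3 FPKM in the normal subsets, and rose (log2 0.62, SE 0.14, limma adjusted p = 0.0419). Oas2 (log2 -0.84, limma adjusted p = 0.0223) and Ifit3 (log2 -0.80, limma adjusted p = 0.0448) fell, and Irf7 did not pass (log2 -0.57, limma adjusted p = 0.0709).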
